A study of Larimichthys polyactis and Larimichthys crocea with 36 samples.

Results

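The 300 most abundant brain-restricted genes of yellow croaker are described here across brain, liver and muscle of 2 species and their hybrids. They were chosen from 21317 gene models whose IDs carry a chromosome number, out of 24212 IDs in all. A gene qualified when its mean FPKM over the 12 brain libraries was at least 8 times its mean in liver and at least 8 times its mean in muscle, and when it averaged at least 5 FPKM in LC brain and in LP brain. FPKM counts fragments per length of transcript and per total of the library, so levels of different genes can be set side by side. 3300 IDs met these thresholds, and the 300 with the highest brain mean were kept, which is 1.41% of the gene models with a chromosome number. The level of each member in each tissue is therefore a product of the choice and is given as a description, with no test.

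The libraries came from LPC and LCP, the 2 reciprocal hybrids, from large yellow croaker (Larimichthys crocea, LC) and from small yellow croaker (Larimichthys polyactis, LP). Each of the 4 crosses was sampled in brain, liver and muscle with 3 libraries per group, which makes 36 libraries in 12 groups. No treatment, age, sex, batch or brain region is stated, and the mother's species is not given for either hybrid. It is not stated either if the 3 libraries of each group are separate animals, so a p-value here measures only how libraries vary, which may be technical. The table gives IDs without gene symbols, so the members keep their IDs, no role is given to any of them, and the tissue labels were not checked against marker genes. Library depth is unknown. FPKM sums ran from 492062 to 634440 per brain library. The highest Spearman correlation between any pair of brain libraries was 0.961, so none looked like a copy of another.

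Vertebrate brain is known for a large set of transcripts that other organs barely make. They encode, among others, the ion channels, receptors and vesicle proteins of neurons, the myelin proteins of glia, and the peptide hormones of neurosecretory cells. In fish the hypothalamus, a brain region, regulates the release of growth hormone from the pituitary, so brain is often sampled in studies of growth.

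The 300 genes took a large part of the FPKM of every brain library and very little of any liver or muscle library. In brain they held 18.8%, 13.7% and 19.6% of the FPKM sum in LPC, 17.7%, 22.4% and 15.99% in LCP, 17.5%, 18.4% and 19.0% in LC, and 18.7%, 15.2% and 19.0% in LP. The means were 17.3% ± 3.20 in LPC, 18.7% ± 3.32 in LCP, 18.3% ± 0.782 in LC, and 17.7% ± 2.15 in LP (n = 3, ± SD). The 4 crosses overlapped, and the lowest library (LPC 2) and the highest (LCP 2) were both hybrids. In liver the share was 0.154% to 0.316% over the 12 libraries, and in muscle it was 0.162% to 0.299%. Between 298 and 300 members reached an FPKM of 1 in each brain library, against 114 to 135 in each liver library and 111 to 151 in each muscle library. In bulk tissue a smaller number of cells that make a transcript and less of it per cell cannot be told apart.

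**Figure D1:**
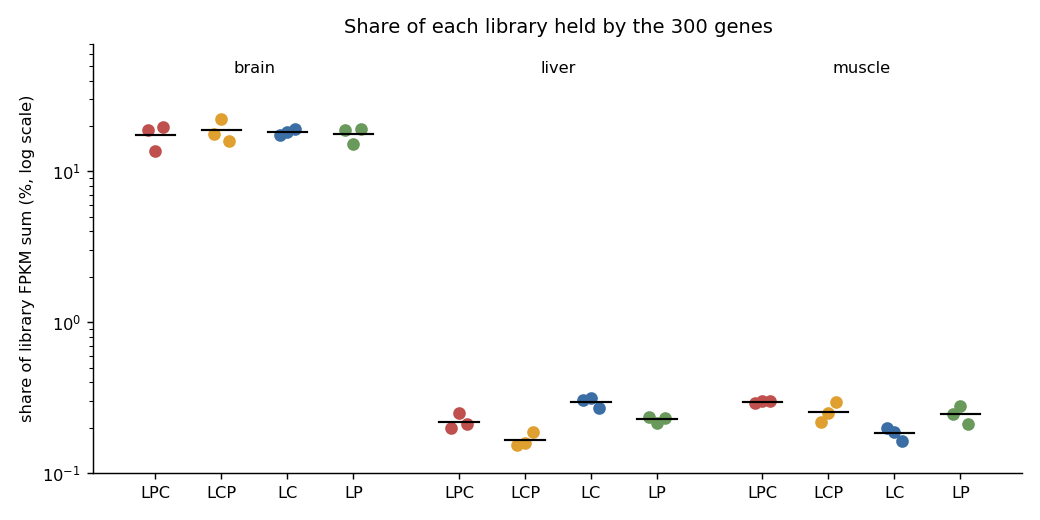
Share of each library's FPKM sum held by the 300 genes (percent, log axis), by tissue and cross. Each point is a library and each bar is the mean of 3; brain libraries lie between 13.7% and 22.4%, and no liver or muscle library exceeds 0.316%.

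Brain means ran from 4790 FPKM for the first member to 108.9 for the last, a 44.0-fold range, with a median of 187.5. The 10 most abundant members held 22.1% of the summed brain means and the 50 most abundant held 49.7%. Of all IDs, 745 had a brain mean at least that of the last member, and 445 of these were not members. At the edge of the list, evm.model.Chr12.765 and evm.model.Chr8.411 averaged 109.0 and 108.9 FPKM and were taken, while evm.model.Chr1.935 and evm.model.Chr5.878, at 108.853 and 108.6 FPKM, were not.

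The excess of brain over the higher of the other 2 tissues was wide-ranging. Its median was 159-fold. It lay between 8 and 16 for 57 members, between 16 and 32 for 39, between 32 and 100 for 40 and between 100 and 1000 for 70, and it reached 1000 or had no trace to divide by in 94. Closest to the threshold on the inside were evm.model.Chr16.518 (8.34-fold) and evm.model.Chr14.368 (8.41-fold), and closest on the outside were evm.model.Chr4.1220 (7.96-fold) and evm.model.Chr7.1058 (7.79-fold). Both sides of the threshold hold genes of high brain level, since evm.model.Chr14.368 averaged 439 FPKM in brain and evm.model.Chr4.1220 averaged 362 FPKM.

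Another 6 IDs were abundant enough in brain and restricted to it, and were left out because they averaged under 5 FPKM in LC brain. None was left out for a low level in LP brain alone. These 6 were not high in a whole cross but in 2 or 3 single libraries. The most abundant of them, evm.model.Chr18.809, named after its values were seen, stood at 1599 FPKM in LPC 2, 5652 in LCP 3 and 5104 in LP 2, and at 29.1 or less in the other 9 brain libraries. evm.model.Chr22.238, named in the same way, was high in the same libraries, at 2351 FPKM in LPC 2, 4082 in LCP 3 and 2175 in LP 2. Both were thus high in a single library of LPC, of LCP and of LP and in no library of LC.

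**Figure D2:**
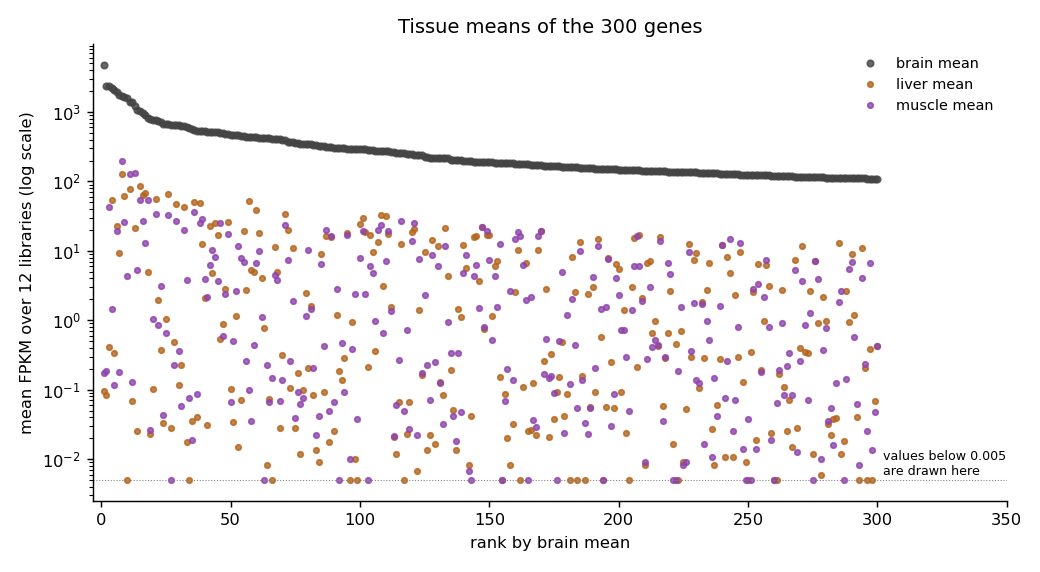
Mean FPKM over 12 libraries (log axis) of each of the 300 genes in brain, liver and muscle, against rank by brain mean. Brain means fall from 4790 to 108.9 along the ranks, whereas liver and muscle means scatter from below 0.005 to above 100 FPKM.

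Of the 5 most abundant members, 4 varied several-fold between libraries of the same cross. The first, evm.model.Chr18.456, had 3876, 1500 and 10558 FPKM in LPC brain, 3677, 19677 and 1733 in LCP brain, 1541, 5272 and 4550 in LC brain, and 2335, 1783 and 976 in LP brain. The crosses overlapped, and the highest library (LCP 2) was 20.2 times the lowest (LP 3). LC minus LP was 1.06 on the log2(FPKM + 1) scale (SE 0.92, limma adjusted p = 0.571).

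The second, evm.model.Chr17.907, was the steady one, with 3011, 1993 and 2114 FPKM in LPC brain, 1982, 2503 and 2073 in LCP brain, 1922, 2176 and 2392 in LC brain, and 3042, 2127 and 3253 in LP brain. Its highest library was 1.69 times its lowest. It reached at most 0.25 FPKM in any liver library and 1.41 in any muscle library.

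The third, evm.model.Chr9.854, had 1652, 2017 and 7309 FPKM in LPC brain, 781, 4025 and 1996 in LCP brain, 762, 3801 and 2230 in LC brain, and 764, 2147 and 512 in LP brain. LPC 3 was its highest library, 14.3 times LP 3. In muscle it had 76.2, 86.8 and 96.2 FPKM in LPC, 6.92, 4.57 and 9.87 in LCP, 1.22, 82.4 and 10.15 in LC, and 33.6, 56.6 and 54.2 in LP. All LPC muscle libraries stood above all LCP muscle libraries, and the LC libraries spanned nearly the whole range. LPC minus LCP in muscle was 3.47 on the log2 scale (SE 0.91), with a limma adjusted p of 0.0501 that did not pass 0.05, and 0.134 with libraries scaled by median ratios.

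The fourth, evm.model.Chr24.244, had 1682, 680.0 and 4559 FPKM in LPC brain, 2237, 4027 and 1309 in LCP brain, 1294, 2275 and 2005 in LC brain, and 2648, 1596 and 2709 in LP brain. The crosses overlapped in brain, where LC minus LP was -0.32 on the log2 scale (SE 0.63, limma adjusted p = 0.821). In liver it had 20.6, 12.3 and 43.2 FPKM in LPC, 56.8, 72.9 and 10.1 in LCP, 144, 179 and 95.4 in LC, and 3.22, 1.39 and 5.63 in LP. Every LC liver library lay above every other liver library, and every LP liver library below. In liver it was 33.5-fold higher in LC than in LP on the log2(FPKM + 1) scale (5.07, SE 0.69, limma adjusted p = 0.000887), against a background of 15.6% of 12553 IDs called for LC against LP in liver. It passed in all 13 alternatives run in liver, with adjusted p from 0.000195 to 0.00488. The mean of the hybrids minus the mid-parent, the mean of LC and LP on the log2 scale, was 0.31 in liver (SE 0.49, limma adjusted p = 0.639, against 32.5% of IDs called there). Whether the LC to LP difference itself differed between liver and brain was not tested.

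The fifth, evm.model.Chr17.238, had 1529, 877 and 4312 FPKM in LPC brain, 1579, 4382 and 871 in LCP brain, 1680, 3152 and 2481 in LC brain, and 1877, 736 and 1321 in LP brain. LPC 3 and LCP 2 were again its highest libraries, as for evm.model.Chr18.456 and evm.model.Chr24.244. It stayed at or below 3.02 FPKM in every liver and muscle library.

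Many members showed wide spread between libraries of the same cross. It is measured here as the within-cross standard deviation of log2(FPKM + 1) in brain, pooled over the 4 crosses. Its median over the members was 0.482, with quartiles of 0.307 and 0.904. It was 1 or more in 54 members (18%), against 9.21% of the 445 other IDs of at least the same brain mean, whose median was 0.336, and 8.90% of all 17931 IDs tested in brain, whose median was 0.425. At 2 or more the members were not ahead of the 445 others, with 8 of the 300 against 18 of the 445. Over all 17931 IDs tested it was 145, a smaller share than in the members. The highest standard deviation was 3.82 in the members and 4.79 in the 445 others. The 445 include the 6 IDs left out for a low level in LC brain, which were high in single libraries. The choice of members thus shaped the comparison of the largest spreads. The share of a gene's brain variance that lay between crosses had a median of 28.7% in the members, 28.5% in the 445 others and 31.9% over all IDs. It was not corrected for the number of groups. With 3 libraries in each of 4 crosses, a share of about this size arises even where crosses do not differ. These medians therefore do not measure an effect of cross.

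**Figure D3:**
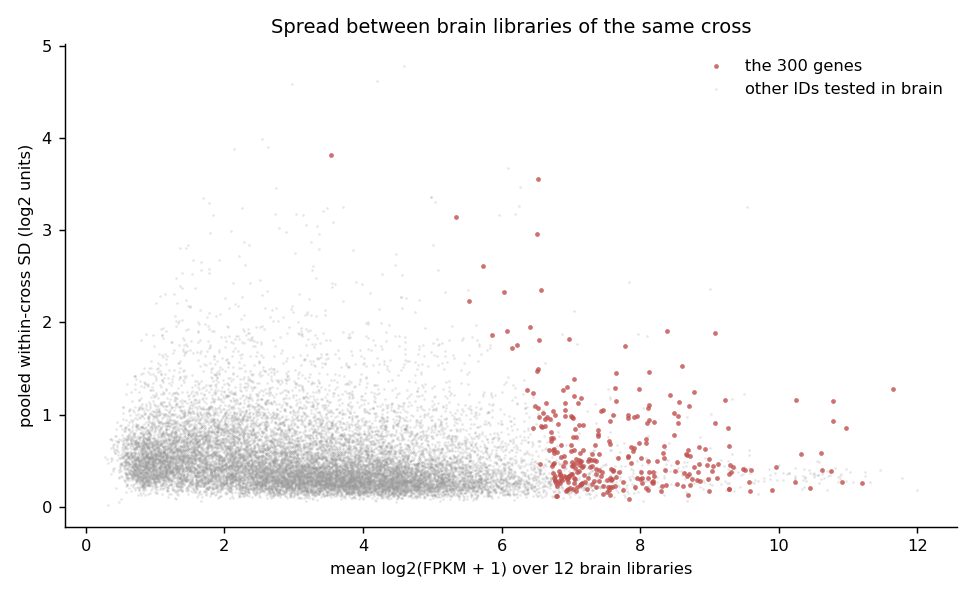
Pooled within-cross standard deviation in brain (log2 units) against mean log2(FPKM + 1) over 12 brain libraries, for the 300 genes and for the other IDs tested. The 300 genes lie at the right, and 54 of them stand at 1 or more.

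The most variable member, evm.model.Chr8.444, was close to absent in most brain libraries and abundant in others, with a standard deviation of 3.82. It had 0.34, 0.49 and 0.27 FPKM in LPC brain, 375, 0.49 and 24.4 in LCP brain, 238, 0.09 and 0.80 in LC brain, and 468, 0.44 and 550 in LP brain. It was high in LCP 1, LC 1, LP 1 and LP 3, and no cross was high or low as a whole except LPC, which was low in its 3 libraries.

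The next, evm.model.Chr11.1029, with a standard deviation of 3.55, had 266, 1.57 and 0.78 FPKM in LPC brain, 833, 201 and 212 in LCP brain, 695, 7.84 and 209.8 in LC brain, and 1257, 3.36 and 1270 in LP brain. The same 4 libraries were its highest, and LPC 2, LPC 3, LC 2 and LP 2 were its lowest. By Pearson r of log2(FPKM + 1) over the 12 brain libraries, evm.model.Chr4.469 (r = 0.968) and evm.model.Chr19.759 (r = 0.908) were most like evm.model.Chr8.444. Most like evm.model.Chr11.1029 were evm.model.Chr23.597 (r = 0.992) and evm.model.Chr10.1114 (r = 0.938). Such r values are descriptions, since the genes share the same 12 libraries and a few of these are far from the rest.

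Many of the members shared a profile over the brain libraries. Taken as deviations from the mean of the cross, the first 2 principal components over the 12 brain libraries held 54.2% and 28.3% of the members' variance, together 82.5%. The corresponding sum was 59.8% for the 445 other IDs of at least the same brain mean and 65.5% for all IDs tested. The 445 again include the 6 IDs left out for a low level in LC brain. Genes were not scaled for these components, so those of large spread weigh most and the shares do not describe a typical member. When the members were grouped by average linkage at 1 minus r of 0.4, 203 of the 300 fell into 5 sets of at least 20, here called A to E in order of size. The sets were made from these same brain values, so their profiles are descriptions, and no gene name is at hand to say what cells or functions they hold.

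Set A, with 84 members and 21.4% of the members' summed brain level, held evm.model.Chr8.444 and evm.model.Chr11.1029. Its summed FPKM was 19796, 13173 and 8885 in LPC, 32745, 12128 and 18167 in LCP, 28739, 15138 and 20265 in LC, and 37207, 16897 and 36861 in LP. It was high in LP 1, LP 3, LCP 1 and LC 1 and lowest in LPC 3. LP 2 did not go with the other LP libraries and lay between LC 2 and LCP 3. Of all IDs, 15358 reached 1 FPKM in LP 1, 15184 in LP 3, 15122 in LCP 1 and 15429 in LC 1. These were the lowest such counts in brain, where the other libraries had 16155 to 17177. Whether the profile of set A is linked to these counts was not tested.

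Set B, with 51 members and 27.3% of the summed level, was the largest by abundance and held evm.model.Chr18.456, evm.model.Chr24.244 and evm.model.Chr17.238. Its summed FPKM was 22800.1, 14072 and 56674 in LPC, 20286, 71061 and 15661 in LCP, 14905, 30519.5 and 25129.8 in LC, and 22038, 20664 and 18568 in LP. LPC 3 and LCP 2 stood far above the other 10 libraries, of which LC 2 was highest. An example chosen after its values were seen is evm.model.Chr18.520, which had 1674 FPKM in LPC 3 and 1122 in LCP 2 and at most 249.8 in any other brain library.

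Set C, with 24 members and 9.39% of the summed level, held evm.model.Chr9.854. It was highest in LPC 3 and LCP 2 as set B was, at 17547 and 15757 summed FPKM, and almost as high in LC 2, at 14483. It was lowest in LP 3, at 4655.

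Set D, with 23 members and 6.82% of the summed level, was lowest where set A was highest. Its summed FPKM was 8691, 9345 and 7378 in LPC, 3575, 6709 and 9332 in LCP, 4436, 10193 and 7013 in LC, and 3640, 9065 and 3571 in LP. LCP 1, LP 1, LP 3 and LC 1 were lowest, and LP 2 lay between LPC 1 and LCP 3. An example chosen after its values were seen is evm.model.Chr12.782, at 402.5 FPKM in LP 2 against 4.29 and 4.68 in LP 1 and LP 3, and at 0 in all 24 liver and muscle libraries.

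Set E, with 21 members and 4.87% of the summed level, was steadier, with a median standard deviation of 0.352. Its summed level was 3424 FPKM in LPC 3 and 2823 in LCP 2, the same 2 libraries in which set B was highest, and 4637 to 6099 in the other 10.

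Counting over all members, 62 had their highest brain value in LCP 2, 54 in LP 3, 45 in LC 2 and 41 in LP 1. LPC 3 held the lowest value of 65 members, LCP 2 of 50 and LPC 2 of 47. LCP 2 was thus the library with most highest values and with the next to most lowest ones.

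**Figure D4:**
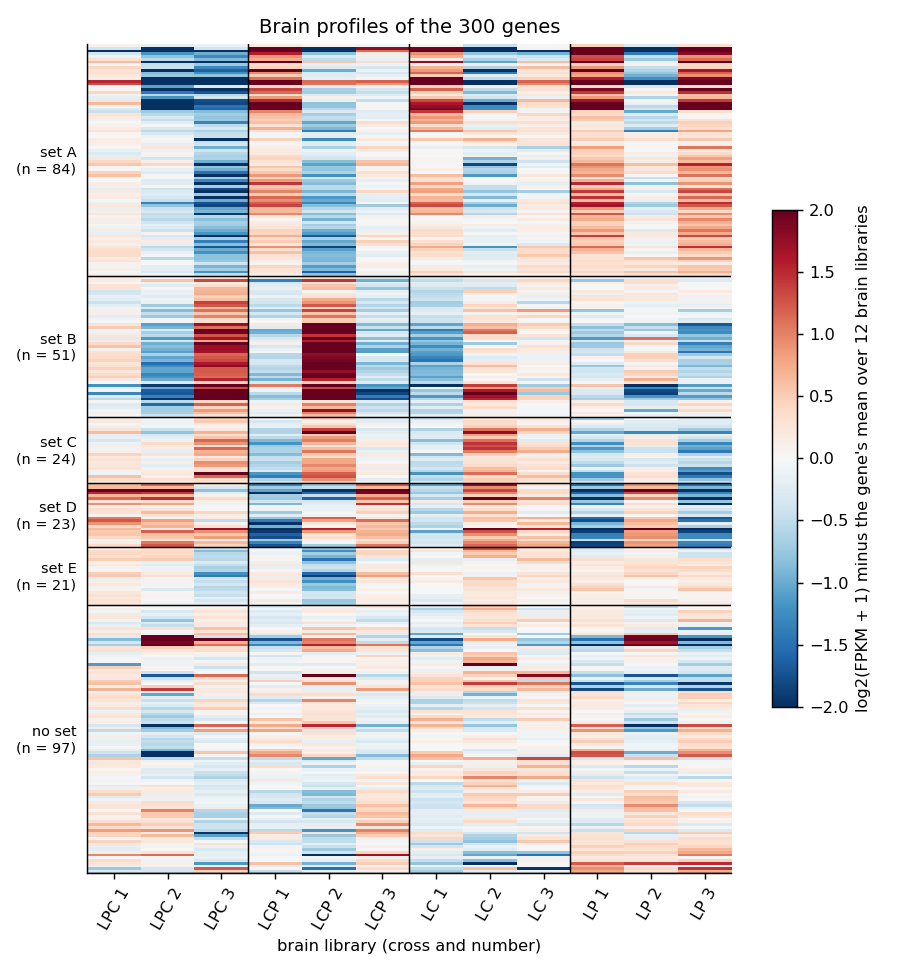
Deviation of log2(FPKM + 1) from the gene's mean over 12 brain libraries (colour, limited to -2 and 2) for the 300 genes in rows and the libraries in columns, ordered by set and cross. Set B is high in LPC 3 and LCP 2. Set A is high in LP 1, LP 3, LCP 1 and LC 1, and set D is low in LCP 1, LP 1, LP 3 and, less so, LC 1.

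Some members hardly varied between libraries of the same cross. The steadiest, evm.model.Chr22.296 (standard deviation 0.0864), lay between 203.8 and 260.6 FPKM in all 12 brain libraries, with the highest 1.28 times the lowest. It had 4.26 to 14.3 FPKM in liver and 0.62 to 5.03 in muscle. The next, evm.model.Chr14.27.2 (standard deviation 0.115), lay between 88.2 and 133.5 FPKM in brain, with the hybrid libraries at 113.4 to 133.5, LC at 88.2 to 108.0 and LP at 98.8 to 111.9. All its hybrid libraries thus lay above all its parental ones, though no member passed the adjusted threshold against the mid-parent, as given below.

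LC brain against LP brain asks how far the parental species differed in these genes. Few were told apart. By limma at an adjusted p under 0.05, 4 members were higher and 1 lower in LC brain. That is 1.67% of the 300, against a background of 3.42% of the 17931 IDs tested in brain (1.68% higher and 1.74% lower). The choice of members asked for at least 5 FPKM on average in LC and in LP brain. It thus left out genes close to absent in either parent. The IDs of the background had no such floor and reach lower levels, so the choice shaped every comparison with all IDs in this paragraph. With 3 libraries per group, a member that was not called may still differ. The median absolute log2 difference was 0.32 in the members and 0.39 over all IDs. At an unadjusted p under 0.05 there were 29 members (9.67%), against 18.7% of all IDs. The median log2 difference of the members was -0.05, against -0.10 over all IDs, and their median standard error was 0.36, against 0.34. The unadjusted count of 29 became 45 without LP 2 and 15 without LP 3. The adjusted count of 5 became 2 without LC 2 or without LC 3, and 1 without LP 1 or without LP 3. All 300 members passed the filter on low values.

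The clearest difference was in evm.model.Chr9.1128, the member of rank 17. It had 1102, 717 and 936 FPKM in LPC brain, 725, 1368 and 776 in LCP brain, 1076, 1924 and 1548 in LC brain, and 219, 291 and 187 in LP brain. Every LP library lay below every library of the other 3 crosses. The means were 918 ± 193 in LPC, 956 ± 358 in LCP, 1516 ± 425 in LC and 232 ± 52.9 in LP (n = 3, ± SD).

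evm.model.Chr9.1128 was 6.43-fold higher in LC than in LP brain on the log2(FPKM + 1) scale (2.69, SE 0.32, limma adjusted p = 0.00117). It passed in all 18 alternatives, with adjusted p from 0.000445 to 0.00881. On the FPKM scale LPC lay at 53.4% and LCP at 56.4% of the way from the LP mean to the LC mean. On the log2 scale of the fit the hybrids lay nearer to LC, with their mean 0.65 above the mid-parent (SE 0.22, limma unadjusted p = 0.0154, adjusted p = 0.737, which does not pass). Against LP alone, LPC was 1.98 higher on the log2 scale (SE 0.32, limma adjusted p = 0.0232) and LCP higher by nearly the same amount (SE 0.32, limma adjusted p = 0.0219). The LPC call was lost without LPC 1, LPC 2, LPC 3, LP 1 or LP 3, each in turn, with adjusted p from 0.0505 to 0.127. The LCP call was lost without LCP 2, LCP 3, LP 1 or LP 3, with adjusted p from 0.0606 to 0.128.

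The same gene differed between the species at its lower levels in the other tissues. In liver it had 40.4, 34.6 and 59.5 FPKM in LPC, 42.6, 60.2 and 85.9 in LCP, 102.0, 173 and 155 in LC, and 13.4, 17.5 and 29.8 in LP. LC liver was 2.80 higher than LP liver on the log2 scale (SE 0.36, limma adjusted p = 0.000669), and the 4 crosses stood in the same order of LC, hybrids and LP as in brain. In muscle it had 12.4, 21.7 and 21.9 FPKM in LPC, 8.02, 8.77 and 12.7 in LCP, 18.6, 25.1 and 10.4 in LC, and 4.79, 6.37 and 6.83 in LP. LC muscle was 1.37 higher than LP muscle (SE 0.33, limma adjusted p = 0.00596), against a background of 51.5% of 10847 IDs called for LC against LP in muscle. The median over all IDs there was -0.64, which scaling by median ratios brought to -0.02, and with that scaling the difference of evm.model.Chr9.1128 was 2.29.

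The second in size was evm.model.Chr15.459, of rank 287. It had 151, 247 and 105 FPKM in LPC brain, 99.2, 84.2 and 168 in LCP brain, 122, 121 and 148 in LC brain, and 26.2, 46.5 and 27.4 in LP brain. LP again lay below all other libraries, and the hybrids overlapped LC. LC minus LP was 1.98 on the log2 scale (SE 0.35, limma adjusted p = 0.0127), a call lost without LC 3, LP 1 or LP 3 (adjusted p 0.0614, 0.0669 and 0.065). LPC was 2.26 higher than LP (SE 0.35, limma adjusted p = 0.0204), and LCP minus LP was 1.77 (limma adjusted p = 0.0684). The gene was listed at 0 in all liver and muscle libraries except LC liver 3, at 0.22 FPKM. The remaining members called higher were evm.model.Chr23.772, described below, and evm.model.Chr5.552, named after its values were seen. In the latter LC minus LP was 1.13 (SE 0.22, limma adjusted p = 0.0214), a call lost in 4 of 18 alternatives. In FPKM, LPC lay at 4.26% and LCP at 29.4% of the way from the LP mean to the LC mean. LPC minus LC was -1.07 (SE 0.22, limma adjusted p = 0.128, which does not pass).

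The only member called lower in LC brain was evm.model.Chr14.529, of rank 100. It had 306, 330.0 and 241 FPKM in LPC brain, 265, 205.0 and 369 in LCP brain, 233, 154 and 156 in LC brain, and 384, 377 and 465 in LP brain. LC and LP did not overlap, and the hybrids lay between them or overlapped LC. LC minus LP was -1.19 on the log2 scale (SE 0.25, limma adjusted p = 0.0305), and the adjusted p rose to between 0.0587 and 0.127 without LC 2, LC 3 or any of the 3 LP libraries and was 0.107 with quantile normalization. In liver LC minus LP was -0.16 (limma adjusted p = 0.676). In muscle it was -1.14 as deposited (limma adjusted p = 0.00126, against 51.5% of IDs called), where the median of all IDs was -0.64. With median-ratio scaling it was -0.28 in muscle (limma adjusted p = 0.27).

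**Figure D5:**
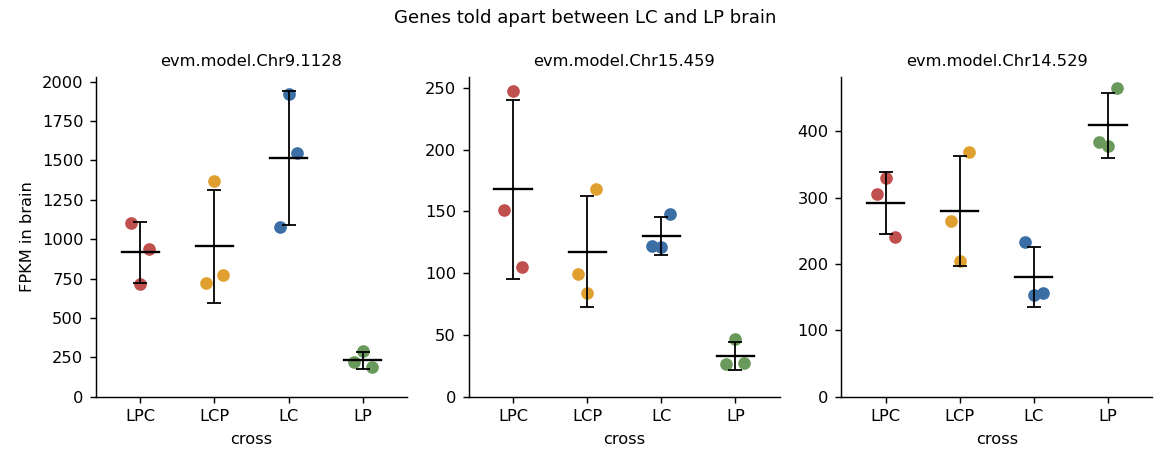
FPKM in brain of 3 of the members called for LC against LP, by cross. Points are libraries, the long bar is the mean and the error bar is the SD (n = 3); LP is lowest in evm.model.Chr9.1128 and evm.model.Chr15.459 and highest in evm.model.Chr14.529.

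Hybrid brain against the mid-parent asks whether the hybrids departed from their parents. No member passed limma at an adjusted p under 0.05 for the mean of the 2 hybrids, against a background of 0.0502% of IDs, and the lowest adjusted p among members was 0.393, in evm.model.Chr15.459 at 1.02 on the log2 scale. At an unadjusted p under 0.05 there were 25 members (8.33%), against 6.25% of all IDs, of which 6 were higher (2%, against 3.42%) and 19 lower (6.33%, against 2.82%). The median log2 difference was -0.09 over the members and 0.01 over all IDs. LPC alone gave 0 members at the adjusted threshold (background 0.039%) and 33 at the unadjusted one (11%, against 7.24% of all IDs), of which 4 were higher (1.33%, against 4.15%) and 29 lower (9.67%, against 3.08%). LCP alone gave 0 (background 0.0112%) and 9 (3%), against 3.94%. The unadjusted counts moved with single libraries. The 25 for both hybrids became 46, 56 and 48 without LPC 1, LCP 1 and LP 2, and 16, 16, 15 and 11 without LPC 3, LCP 2, LP 1 and LP 3. The 33 for LPC became 56, 51 and 72 without LPC 1, LCP 2 and LP 2, and 15, 13, 16, 19 and 15 without LPC 2, LPC 3, LC 1, LP 1 and LP 3. The 9 for LCP became 24, 17 and 15 without LCP 1, LCP 3 and LP 2, and 3, 5, 4 and 3 without LCP 2, LC 3, LP 1 and LP 3. The adjusted counts were 0 in every alternative run, and these comparisons share their parental libraries. The choice of members set a floor on LC and LP brain and none on hybrid brain, so it did not treat both sides alike. Many members also share a profile over the brain libraries, so the unadjusted counts are not counts of independent genes.

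Few members were called when the hybrids were set against each parent separately, and the shares over all IDs were small too. LPC against LP gave 2 members at the adjusted threshold (0.667%, background 0.541%), 2 higher (background 0.396%) and 0 lower (background 0.145%). They were evm.model.Chr9.1128 and evm.model.Chr15.459, and the count was 0 without LPC 1, LPC 2, LP 1 or LP 3 and 1 without LPC 3. At an unadjusted p under 0.05 LPC against LP gave 53 (17.7%, against 13.3% of all IDs), of which 9 were higher (3%, against 6.41%) and 44 lower (14.7%, against 6.93%). That count became 105 without LP 2, and 21, 18 and 13 without LPC 3, LP 1 and LP 3. LCP against LP gave 1 member (0.333%, background 0.508%), evm.model.Chr9.1128, with 1 higher (background 0.357%) and 0 lower (background 0.151%). At an unadjusted p under 0.05 LCP against LP gave 18 (6%, against 9.66%). The adjusted count was 2 without LPC 2 and 0 without LCP 2, LCP 3, LP 1 or LP 3, and the unadjusted one ran from 6 without LP 3 to 43 without LCP 1. LPC against LC gave 0 by limma (background 0.229%), with 18 unadjusted (6%, against 8.67%), which became 32 without LPC 1, 6 without LPC 2 or LPC 3, and 11 without LC 1 or LC 3. LCP against LC gave 0 (background 0.162%), with 7 unadjusted (2.33%, against 6.37%), which became 13 without LCP 3. Both hybrids are compared here with the same parental libraries. The floor on parental brain and the shared profiles apply to these counts too.

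LPC brain against LCP brain gave 0 members by limma (background 0%), and 3 at an unadjusted p under 0.05 (1%, against 3.58% of all IDs). Leaving out single libraries moved that count to between 1 and 15, with 15, 10, 11 and 7 without LPC 1, LCP 2, LCP 3 and LP 2, and 1 without LPC 2, LCP 1 or LP 3. The median log2 difference was -0.02 in the members and 0.09 over all IDs, and the median standard error of a member was 0.36.

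A few genes led the levels of the members in the other tissues. The liver mean was 1 FPKM or more in 131 members and 10 or more in 64, and the muscle mean in 134 and 49. Only 2 members were listed at 0 in all 24 liver and muscle libraries, 109 stayed below 1 in all of them, and 191 reached 1 in at least 1. The mean was higher in liver for 162 members and higher in muscle for 136. The 10 leading members held 33.4% of the members' summed liver level and 40.5% of their summed muscle level, and 5 genes were among the 10 in both tissues. Over the 300 genes Spearman's rho between the liver and muscle means was 0.747. It was 0.216 between brain and liver means and 0.271 between brain and muscle means. The choice set a floor under the brain mean and a ceiling on the other means. These values are thus descriptions across genes that the choice shaped.

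evm.model.Chr15.121, of rank 8, had the highest mean of all members in both other tissues. In liver it had 126, 121 and 105 FPKM in LPC, 81.2, 114.9 and 88.1 in LCP, 237, 246 and 181 in LC, and 85.8, 76.7 and 76.8 in LP. LC stood above the other 3 crosses, and LC minus LP was 1.45 on the log2 scale (SE 0.22, limma adjusted p = 0.00155). It passed in all 13 alternatives run in liver, with adjusted p from 0.0018 to 0.00807.

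In muscle evm.model.Chr15.121 had 261, 190.0 and 203 FPKM in LPC, 241, 304 and 373 in LCP, 181, 136 and 122 in LC, and 126, 154 and 93.0 in LP. All hybrid libraries lay above all parental libraries. The hybrids exceeded the mid-parent by 0.94 on the log2 scale (SE 0.20, limma adjusted p = 0.00266, background 47.2% of IDs called), while the median of all IDs was 0.38, and with median-ratio scaling the excess was 0.35 and did not pass (limma adjusted p = 0.185). LC minus LP in muscle was 0.24 (limma adjusted p = 0.478) and 1.22 (limma adjusted p = 0.0112) with that scaling.

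evm.model.Chr14.868 and evm.model.Chr14.571 were next in liver and in muscle. In liver evm.model.Chr14.868 had 59.2, 68.2 and 81.7 FPKM in LPC, 62.9, 69.5 and 74.3 in LCP, 116, 177 and 105 in LC, and 68.6, 63.1 and 75.8 in LP. LC lay above the other crosses, with LC minus LP of 0.90 on the log2 scale (SE 0.24, limma adjusted p = 0.0287), a call lost without LC 2 or any 1 of the 3 LP liver libraries (adjusted p 0.0531 to 0.0888). In muscle evm.model.Chr14.571 had 154, 116 and 137 FPKM in LPC, 75.4, 95.0 and 89.2 in LCP, 205, 119.0 and 119 in LC, and 123, 175 and 193 in LP. LCP was the lowest cross there as deposited, and the others overlapped. LPC minus LCP was 0.64 on the log2 scale (limma adjusted p = 0.165), where the median of all IDs was 0.33. With median-ratio scaling it was 0.20 (limma adjusted p = 0.813). The mean of the hybrids minus the mid-parent was -0.49 as deposited (limma adjusted p = 0.0667, against 47.2% of IDs called). With that scaling it was -1.07 (limma adjusted p = 0.0071).

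The members lay on all 24 chromosome numbers in the IDs, from 5 genes on chromosomes 10 and 22 to 20 on chromosomes 7, 11 and 16, which is 0.546% of the gene models numbered for chromosome 10 and 2.41% of those for chromosome 16. In 5 pairs the members carried consecutive numbers. The pair evm.model.Chr19.263 and evm.model.Chr19.264 ran most closely together over the 12 brain libraries (Pearson r = 0.996), with the second 4.81 to 7.66 times the first in each library. Next were evm.model.Chr18.694 and evm.model.Chr18.695 (r = 0.962) and evm.model.Chr5.552 and evm.model.Chr5.553 (r = 0.878), while the other 2 pairs had r of 0.417 and 0.382. Whether paired genes share fragments through similar sequence was not tested.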

How the data were processed

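Polyadenylated RNA of brain, liver and muscle was sequenced from 36 libraries of 4 crosses. The authors deposited 1 table of FPKM values with 2 decimals per ID and library. Per the submitters' processing notes reads were processed with fastp; the aligner, quantifier, build and annotation were not given in the sources used here, and FPKM is relative to the library's total, so a few very abundant transcripts lower all other values, and depth is unknown, so no counting interval is given.

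Columns were mapped by name, and none was left unmapped. limma 3.58.1 in R 4.3.3 was fitted to log2(FPKM + 1) of the 12 brain libraries with 4 crosses as groups and a mean-variance trend, 2-sided, for IDs with at least 1 FPKM in at least 3 libraries, with Benjamini-Hochberg adjustment over all 17931. Liver (12553 IDs) and muscle (10847) were fitted likewise. Fold changes on this scale understate those of low genes. Calls needed an adjusted p under 0.05. The code was checked on simulated data.

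The genes named are the 5 of highest brain mean, 2 on each side of either threshold, the 2 of highest mean in liver and in muscle, the 2 of largest and smallest within-cross spread with the 2 most like each of the largest, and in each brain contrast up to 2 called members higher and 2 lower. Others are said to be named after their values were seen. Members and lists were chosen with earlier results of these data known. Alternatives were median-ratio scaling, quantile normalization, a pseudocount of 0.1, no filter, a filter at 5 FPKM, a linear mid-parent, a replicate block and leaving out each library. No gene names, genome or sequences were used here.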

Additional observations from a re-analysis of the deposited data

Results flagged for a closer look

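evm.model.Chr23.772, a member also higher in LC than in LP brain, differed in the opposite direction in muscle as deposited. In brain it had 226, 249 and 252 FPKM in LC against 119, 144 and 119 in LP, and LC minus LP was 0.93 on the log2 scale (SE 0.20, limma adjusted p = 0.0308), a call lost without LC 1, LC 2, LC 3, LP 1 or LP 3 (adjusted p 0.071 to 0.123). In muscle it had 12.2, 11.7 and 14.1 FPKM in LC against 19.5, 23.1 and 21.0 in LP, so that the LC mean minus the LP mean was -8.53 FPKM. The libraries did not overlap in either tissue. The muscle difference was -0.70 on the log2 scale (limma adjusted p = 0.0319), where the median of all IDs was -0.64, and it was 0.23 (limma adjusted p = 0.441) with median-ratio scaling. The muscle call was also lost without LPC 3, LC 1, LC 2, LP 2 or LP 3 (adjusted p 0.0503 to 0.0958). In liver LC minus LP was 0.51 (limma adjusted p = 0.0866, which does not pass) and 0.49 (limma adjusted p = 0.135) with median-ratio scaling. The difference between the tissues was not tested.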

How the results depend on the processing

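The count of members called for LC against LP in brain was 5; it was 1 to 6 when single brain libraries were left out. LPC against LP gave 2 as reported, 0 to 2 with single libraries left out, and 8 (2 higher, 6 lower) with a replicate block. LCP against LP gave 1, 0 to 2 with single libraries left out and 2 with median-ratio scaling. LPC against LC gave 0, and 1 with median-ratio scaling. Counts against the mid-parent, LPC against LCP and LCP against LC were 0 in every alternative run. With the block the members at an unadjusted p under 0.05 numbered 52 for both hybrids against the mid-parent (25 without it), 63 for LPC against the mid-parent (33), 20 for LPC against LCP (3, and 5 with median-ratio scaling), 91 for LPC against LP (53), 34 for LPC against LC (18) and 29 for LCP against LP (18). The labels do not say if libraries with the same number were paired or handled together, so the block is not a stated pairing. Libraries with the same number correlated in their deviations from the group mean at r of 0.264 to 0.656 for number 1. For number 2 r was -0.31 to 0.438, and for number 3 it was -0.369 to 0.00428. In muscle, median-ratio scaling reversed LC minus LP of evm.model.Chr14.868 (-0.35 as deposited, 0.61 scaled), evm.model.Chr14.571 (-0.17 and 0.80) and evm.model.Chr23.772 (-0.70 and 0.23); the same scaling moved the median of all IDs there to -0.02, against -0.64 as deposited. The 300 genes kept 245 members with a fold of 4, 243 with a fold of 16, 273 with medians and 287 to 298 without single libraries, and their share of brain FPKM was 15.3% to 19.5%. The median within-cross SD of the members was 0.482 to 0.485 on other scales. The tree gave 5 sets with 163 members at 0.3 and 4 sets with 228 at 0.5. Depth is unknown, and 3 libraries a group limit what the tests can show.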
